A study of Mus musculus with 92 samples.

Results

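Adar1 KO macrophages were compared with control macrophages while both were kept in 10 uM baricitinib. The libraries were chosen by their labels alone, which gave 7 of the 92 libraries of the series: 4 of Adar1 KO cells and 3 of NTC (non-targeting control) cells. Both groups are macrophages from ER-Hoxb8 progenitors, mouse bone marrow cells held immature by an estrogen-regulated Hoxb8 protein. The line came from a Cas9-expressing FVB/NJ mouse and the labels give its genotype as Cas9 het. Adar1 KO cells carry sgRNA #1 against Adar, NTC cells a guide with no target; each is a pool of transduced, sorted cells and not a clone. After removal of estrogen the cells grew for 7 days in M-CSF, and baricitinib was added at every change of medium. Each group is 1 edited line, so loss of Adar and any other difference between the lines cannot be told apart here.

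ADAR1 edits adenosine to inosine in double-stranded RNA, which keeps the cell's own RNA from being sensed by MDA5, the product of Ifih1. When it is lost, MDA5 signals through MAVS, type I interferon is made, and the interferon receptor turns on interferon-stimulated genes (ISGs) through JAK kinases and STAT factors. Baricitinib inhibits JAK kinases and so acts between the receptor and the ISGs. The comparison asks what still separates Adar1 KO from NTC macrophages when that step is inhibited.

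The deposited values are log2 CPM, counts scaled to library size, with a lowest value of -2.78 for a gene without counts in these libraries. Depth, estimated from the steps between low values, was 11.3, 21.6, 15.5 and 13.4 M counts (M, mega) in Adar1 KO replicates 1 to 4, and 12.1, 13.3 and 14 M in NTC replicates 1 to 3. A gene with 3 counts would lie between -1.81 and -1.28 in these libraries; such floors cover counting error only. Spearman correlations across genes were 0.978 to 0.988 within Adar1 KO, 0.985 to 0.990 within NTC and 0.922 to 0.958 between the groups.

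The 4 Adar1 KO libraries stand apart from the other 29 baricitinib libraries in how their values move with the GC content of the transcript. The trend was measured as the median deviation from the gene means in the fifth of genes richest in GC, minus that in the fifth poorest in GC. It was -1.18, -1.05, -0.55 and -0.75 in Adar1 KO replicates 1 to 4 at 10 uM, against -0.20, -0.01 and -0.16 in NTC and -0.20 to 0.46 over all 29 other libraries. The difference between the groups at 10 uM has an exact two-sided permutation p of 0.057, the smallest that 4 against 3 libraries can give. Further measures that separate these groups with the same p are these: the share of counts from mitochondrial genes was 0.801 to 1.34% in Adar1 KO and 0.594 to 0.798% in NTC, and the number of tested genes above 1 CPM was 9913 to 10046 and 10071 to 10088. For depth, whose ranges overlap, the exact permutation p was 0.51. What part these measures have in the results was not tested. Values after a correction for the GC trend, chosen after it was seen, are given where they ended the call of a gene named as called or moved its log2FC by more than 1.5 times. Fits without replicates 1 and 2, the Adar1 KO libraries with the steepest trend, are treated likewise. Some are given for other genes as well.

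**Figure D1:**
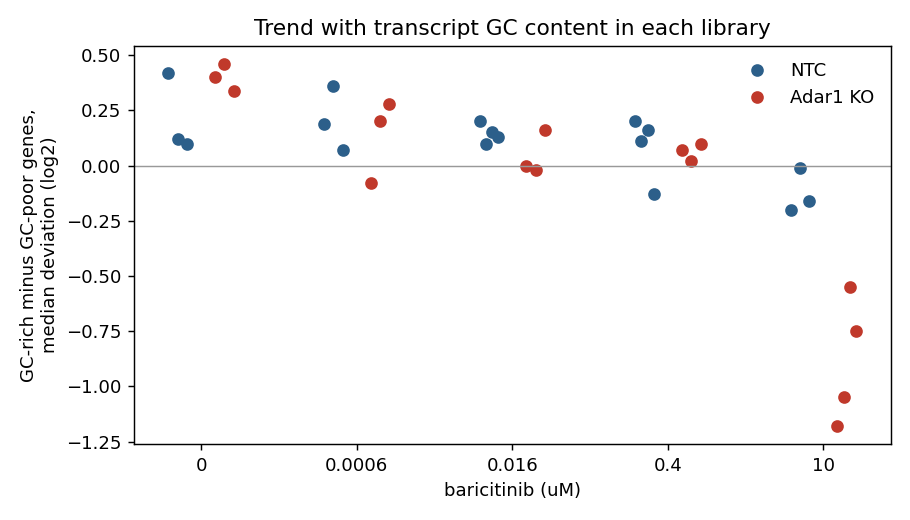
Trend with transcript GC content in each of the 33 baricitinib libraries, by dose: each point is 1 library, and the y axis is the median deviation (log2) of GC-rich genes minus that of GC-poor genes. The 4 Adar1 KO libraries at 10 uM lie between -1.18 and -0.55, below all others.

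Adar itself, the targeted gene, was lower in Adar1 KO than in NTC macrophages at 10 uM. Its level was 3.70, 3.64 and 3.22 log2 CPM in NTC replicates 1 to 3, and 1.55, 2.15, 2.91 and 2.03 in Adar1 KO replicates 1 to 4. The groups do not overlap, and the fit in limma gave a log2FC -1.36, SE 0.45, adjusted p = 0.015, or -1.12 after GC correction. The call was lost without Adar1 KO replicate 1 (-1.16), without NTC replicate 1 (-1.27) and without Adar1 KO replicates 1 and 2 together (-1.05). Without drug the order was the opposite, with 1.85 (adjusted p = 0.0051; levels 6.37 to 7.42 in Adar1 KO and 4.69 to 5.12 in NTC), and the change between doses passed the test (interaction -3.21, adjusted p = 3.7e-04). The amount of mRNA does not show whether the gene is edited.

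Across all genes the groups differed widely. Of 11152 genes tested, 5055 (45.3%) had an adjusted p under 0.05, with 2395 higher (21.5%) and 2660 lower (23.9%) in Adar1 KO. The groups do not overlap for 5672 genes (50.9%). DEGs, for which the log2FC must also be 2 or more, up or down, numbered 350 (3.14%), of which 83 were higher and 267 lower. GC correction gave 4765 genes called (42.7%) and 267 DEGs (2.39%), 94 of them higher and 173 lower, and 229 DEGs were shared between both analyses. A fit of the 7 libraries alone called 4989 of 10262 genes (48.6%). Of the 5055 calls, 2904 (57.4%) stood in every fit that left out a library, with GC correction and without KO replicates 1 and 2. These p-values measure the spread between wells of the same lines, which the study's methods describe as differentiated independently and the labels do not; that spread may be technical. In bulk RNA, fewer cells of a kind and less RNA per cell cannot be told apart.

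The DEGs lower in Adar1 KO are rich in GC. Their transcripts have a median GC content of 55.5%, against 50.2% over all genes tested and 48.9% for the DEGs that were higher, and 196 of the 267 are among the 4438 genes highest in GC content. In the fifth of genes poorest in GC the median log2FC was 0.31, and in the richest it was -0.46; after correction the values were 0.01 and 0.00. The 215 lower DEGs that were not lower DEGs without drug have a median of 56%, and 116 of them remained DEGs after GC correction. Of the 52 that were lower DEGs at both doses, with a median of 50.5%, 48 remained.

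**Figure D2:**
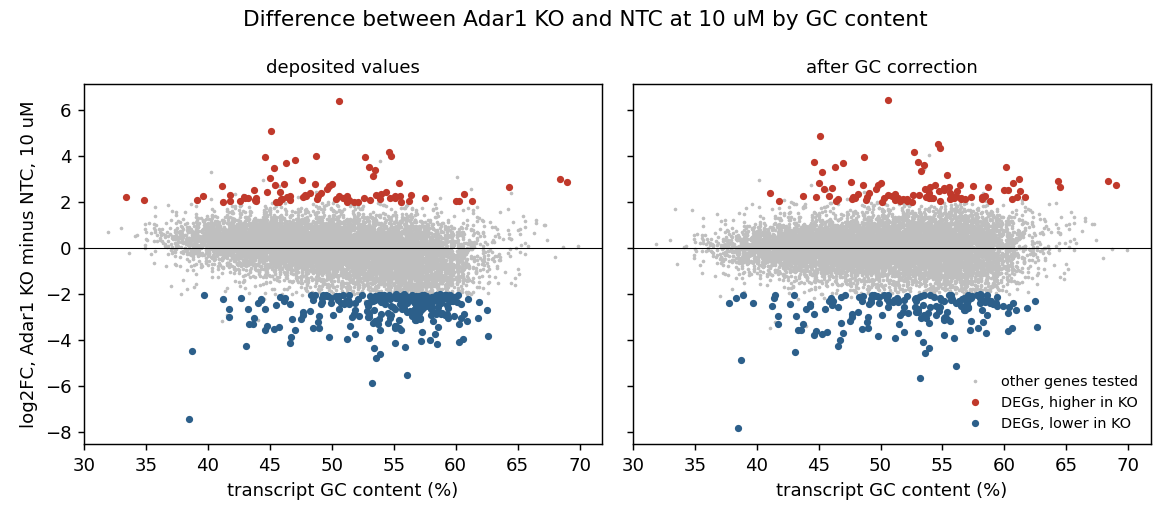
Log2FC between Adar1 KO (n = 4) and NTC (n = 3) at 10 uM for each gene tested, against the GC content of its transcript in percent, before and after GC correction. Most of the 267 lower DEGs lie at high GC content before correction; 94 higher and 173 lower DEGs are found after it.

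The ISGs, which carry the interferon response, did not separate the groups at 10 uM by the test used. The study plots 20 ISGs, with no rule of choice given in its text. None of these 20 had an adjusted p under 0.05 in limma, and 1 (Ccl2) had an unadjusted p under 0.05. Their median log2FC was 0.10, or 0.02 after GC correction (0 called), against 0.00 over all genes tested. A fit with library weights called 2, Ccl2 and Stat2, and 5676 of all 11152 genes. Without drug, where 25.3% of genes were called and 3.87% were DEGs, 19 of the 20 were called, all of them higher in Adar1 KO, and 18 were DEGs, with a median of 3.76. The test of the difference between doses called 39.5% of all genes (DEGs, 7.11%) and 13 of the 20 ISGs, all with a smaller log2FC at 10 uM.

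Ifit1, which binds foreign RNA, stood at -0.04, -0.28 and -1.21 in NTC and 1.26, 1.00, 0.32 and 0.48 in Adar1 KO at 10 uM. Its groups are apart, and the log2FC of 1.27 (95% interval -1.30 to 3.85) compares with 7.18 without drug. Ifit2, of the same family, was at 3.66, 3.54 and 3.61 in NTC and 3.61, 3.22, 3.41 and 3.49 in Adar1 KO, where the groups overlap. Isg15, a ubiquitin-like modifier, was at 1.23, 1.64 and 2.20 in NTC against 1.44, 2.36, 1.60 and 1.93; these overlap as well. Ifih1, the sensor MDA5, was at 3.86, 3.63 and 3.32 in NTC and 4.16, 3.75, 3.43 and 3.32 in Adar1 KO. Cxcl10, a chemokine that draws T cells, was at -0.95, 0.26 and -1.35 in NTC against 0.87, 0.65, 0.18 and -1.38, near the level of 3 counts in some libraries of each group.

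The intervals of these ISGs are wide; the fit uses 1 spread per gene over all 33 libraries. They run from -2.58 to 1.97 for Ifi44 and from -1.82 to 3.77 for Ifit3, so differences within them could not be detected by this fit. Oas1a and Oas1g are close copies, like some Gbp genes, and may share reads. The fit of the 7 libraries alone, which tests 11 of the 20, called 3, against 48.6% of all genes in that fit: Ccl2, a monocyte chemokine, with 0.88 (adjusted p = 0.0027), Ifit1 with 1.27 (0.033) and Stat2, a transcription factor that JAK kinases activate, with -1.32 (0.0017). Stat2 was at 3.65, 3.95 and 3.77 in NTC and 1.88, 2.85, 2.68 and 2.47 in Adar1 KO, so each Adar1 KO library lies below each NTC library. The groups are apart for 6 of the 20 ISGs, against 50.9% of all genes: Ccl2, Ifit1 and Ifit3 higher, and Irf7, Oas3 and Stat2 lower.

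**Figure D3:**
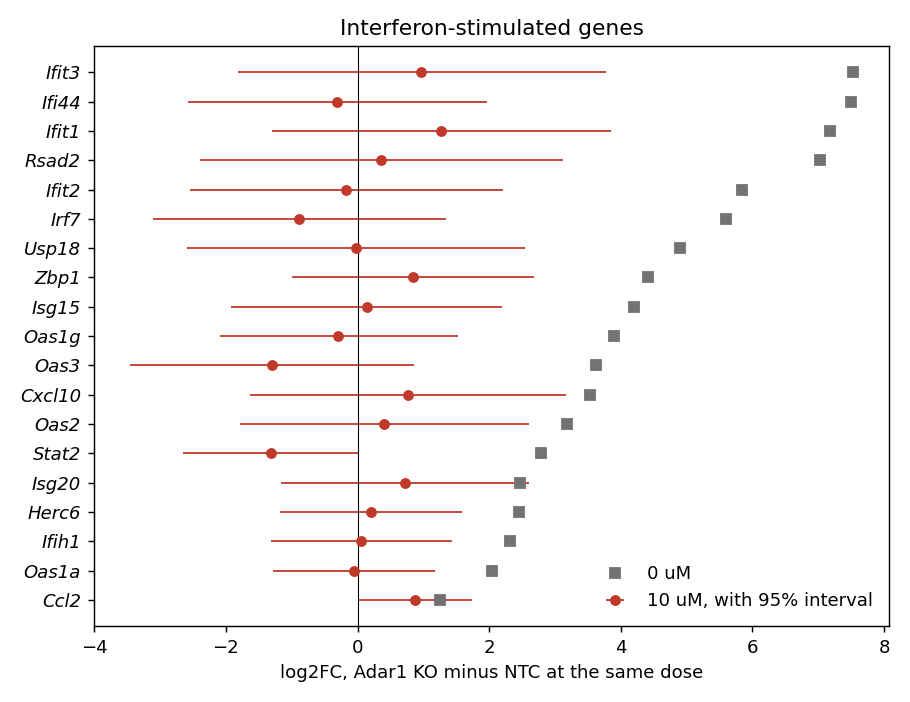
Log2FC between Adar1 KO and NTC for 19 of the 20 ISGs at 10 uM (points with 95% interval) and without drug (squares). At 10 uM the values lie between -1.32 and 1.27, while without drug they reach 7.53 for Ifit3.

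Promoters of ISGs hold sites for the factors that act below the kinases that baricitinib inhibits. Windows around the motif (GAAA, then any 2 bases, then GAAA) are shown for each ISG whose levels are given above by library and whose promoter has it, so that the letters of such a site can be seen. They come from RefSeq GRCm38.p6 promoters, read 5' to 3' on the strand of the gene, with the motif on either strand in capitals; adjoining matches run into each other.
Ifit1, chr19:34640779-34640838, plus strand: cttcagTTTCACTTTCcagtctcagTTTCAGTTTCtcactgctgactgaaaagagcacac
Isg15, chr4:156200850-156200909, minus strand: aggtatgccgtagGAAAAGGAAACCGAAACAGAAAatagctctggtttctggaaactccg
Stat2, chr10:128270251-128270310, plus strand: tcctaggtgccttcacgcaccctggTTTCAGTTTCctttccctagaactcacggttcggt
Cxcl10, chr5:92349068-92349127, minus strand: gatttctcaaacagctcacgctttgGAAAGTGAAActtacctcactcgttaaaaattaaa
Ifih1, chr2:62646206-62646265, minus strand: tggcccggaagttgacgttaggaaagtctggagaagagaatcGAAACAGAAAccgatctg
The motif is in 1079 of the 27025 promoters of the same length (3.99%). The promoter table holds 15 of the 20 ISGs, too few for a share of the list to be read; some of the 15 hold the motif and others do not. A match describes these letters and is no test of binding.

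Of the 31 other ISGs tested, 1 was called, against 45.3% of all genes: Ifitm3, an antiviral membrane protein, was at 10.68, 10.65 and 10.91 in NTC and 9.98, 10.18, 9.83 and 9.98 in Adar1 KO, where it fell by 0.75 (adjusted p = 2.7e-04; -0.64 after GC correction). The median of these genes was 0.20 at 10 uM and 2.93 without drug, where 27 were called, all higher, against 25.3% of all genes. The fit of the 7 libraries alone called 10 of 19, with 8 higher and 2 lower, against 48.6% of all genes in that fit. Among guanylate-binding proteins and IRGs, GTPases that attack the vacuoles of pathogens, 1 of 12 was called (against 45.3% of all genes), Gbp9. It was at 0.11, 1.35 and 0.49 in NTC and 3.00, 2.70, 2.50 and 2.55 in Adar1 KO (log2FC 2.04, adjusted p = 0.027), and the call was lost with GC correction (1.78) and without Adar1 KO replicate 1, NTC replicate 1 or NTC replicate 3 (log2FC 1.76 to 2.39 over the 7 fits), and without KO replicates 1 and 2 (1.87). The list had a median of 0.40, against 3.67 without drug.

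Of 19 interferon, receptor and JAK-STAT genes tested, 11 were called (against 45.3% of all genes), 3 higher and 8 lower, with a median log2FC of -0.46 and a median GC content of 52.6%. Stat6, the factor that answers interleukin 4, was at 7.63, 7.70 and 7.76 in NTC and 4.68, 4.99, 5.44 and 5.13 in Adar1 KO (log2FC -2.64, SE 0.14, adjusted p = 3.2e-14). Irf5, a factor for inflammatory genes below Toll-like receptors, was at 7.20, 7.39 and 7.11 in NTC against 4.56, 5.06, 5.77 and 5.21 (log2FC -2.08, SE 0.19, adjusted p = 1.7e-09). Neither gene's groups overlap, and GC correction gave -2.24 and -1.59. Others that fell are Jak3 and Irf3 (-1.58 and -1.45), which pass on cytokine and MAVS signals, Stat3, Stat5a and Stat5b (-0.93, -0.72 and -0.66), and the interferon receptor chain Ifnar1 (-0.50). The genes that rose are the interferon gamma receptor chain Ifngr2, at 5.28, 5.22 and 5.33 in NTC and 6.35, 6.50, 6.71 and 6.45 in Adar1 KO (log2FC 1.22, adjusted p = 1.8e-06), Stat4 (1.38) and the kinase Jak2 (1.11). With GC correction the call was lost for Jak2 (0.87) and Stat5a (-0.31), and the log2FC moved for Stat5b (-0.29) and Irf3 (-0.96). Jak2 (1.06), Stat3 (-0.60) and Stat5a (-0.50) lost the call without KO replicates 1 and 2. A left-out library, Adar1 KO replicate 2 or NTC replicate 2, ended the call of Jak2 (log2FC 0.99 to 1.20 over the 7 fits); 10 of the 11 calls stood in all 7 fits that left out a library, 9 of them also with GC correction and 8 also without KO replicates 1 and 2. Of this list 2 genes were called without drug (25.3% of all genes), 1 of them, Ifnar1, lower (-0.79).

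Feedback and cytokine target genes of the pathway gave 4 calls among 12 tested (against 45.3% of all genes), all lower, with a median of -0.17. Bcl2l1, which encodes the survival factor BCL-XL, was at 8.10, 7.98 and 8.22 in NTC and 5.16, 4.37, 6.65 and 6.46 in Adar1 KO (log2FC -2.44, SE 0.29, adjusted p = 1.1e-07; -2.05 after GC correction). The receptor chain Il10ra (-1.31), the cytokine Osm (-0.98) and the receptor chain Il4ra (-0.95) also fell; 3 of the 4 calls stood in all 7 fits that left out a library, 3 of them also with GC correction and 2 also without KO replicates 1 and 2. The call that a left-out library ended is Il4ra (any of KO replicate 1, 3 or NTC replicate 1, 2, 3; -1.12 to -0.82 over the 7 fits). The call lost with GC correction is that of Il4ra (-0.51), and the log2FC moved for Osm (-0.56). The fit without KO replicates 1 and 2 ended the call of Osm (-0.59) and Il4ra (-0.88), and the log2FC moved for Bcl2l1 (-1.54). Among sensors of double-stranded RNA and editing enzymes 3 of 10 were called (against 45.3% of all genes), all lower (median -0.38): Adar, Mavs and Stau1. Mavs, the adaptor that MDA5 signals through, was at 6.16, 6.28 and 6.29 in NTC and 4.84, 4.11, 5.34 and 5.34 in Adar1 KO (log2FC -1.33, SE 0.16, adjusted p = 2.1e-07; -1.09 after GC correction), with no overlap. Stau1, which binds double-stranded RNA, fell by 0.71. Adar apart, 6 enzymes of nucleic acids whose mutation causes Aicardi-Goutieres syndrome were tested. These 6 gave 0 calls in limma (against 45.3% of all genes), 0 at an unadjusted p under 0.05 and 2 after GC correction (higher). Their median was 0.23, with Samhd1 at 0.25 and Rnaseh2a at 0.21 (0.15 and 0.64 after GC correction, which called Rnaseh2a).

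Among single genes on the deposited values, Ncam2 had the largest difference of all genes tested, and Atp1b2, described below, the next. Ncam2, a cell adhesion molecule, was at 6.38, 6.08 and 6.20 in NTC and -1.20, -0.58, -0.33 and -2.78 in Adar1 KO (log2FC -7.44, SE 0.36, adjusted p = 1.4e-14). Ngfrap1, linked to death signals of the neurotrophin receptor, was at 3.51, 3.97 and 3.41 in NTC against -2.78, -2.78, -1.75 and -1.65 (log2FC -5.87, SE 0.32, adjusted p = 8.8e-14), and the Adar1 KO libraries are all at or below 3 counts. Pls3, which bundles actin, was at 9.17, 9.02 and 9.14 in NTC and 4.96, 5.17, 4.62 and 4.63 in Adar1 KO (log2FC -4.26, SE 0.18, adjusted p = 4.9e-16). Each of the 3 genes is far below NTC in all 4 Adar1 KO libraries, and GC correction moved the log2FC to -7.81, -5.65 and -4.53. Cd36, a receptor for oxidized lipids and fatty acids, was at 8.05, 7.96 and 8.25 in NTC and 2.75, 4.34, 4.02 and 3.31 in Adar1 KO (log2FC -4.48, SE 0.25, adjusted p = 1.7e-13). Ambra1, a regulator of autophagy, was at 6.25, 6.47 and 6.31 in NTC against 0.89, 2.01, 2.07 and 2.05 (log2FC -4.59, SE 0.32, adjusted p = 1.4e-11). In neither gene do the groups overlap. C1qtnf6 (-4.31), Vstm2a (-4.10) and Lims2 (-4.03), an adaptor of integrin signalling, were lower to a like degree.

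These 8 genes were lower without drug too, with log2FC of -7.51 for Ncam2, -5.09 for Ngfrap1, -4.83 for Pls3, -3.15 for Cd36, -2.47 for Ambra1, -3.15 for C1qtnf6, -4.46 for Vstm2a and -2.92 for Lims2. Their fall was larger at 10 uM for Cd36 (interaction adjusted p = 0.0052), Ambra1 (8.1e-04) and Lims2 (0.031; with GC correction this interaction was not called, at -0.54 and 0.35), and the difference between doses was not called for the other 5. The remaining 7 of the 15 genes with the largest falls had no call without drug: Cpsf1, DHX30, Fam53c, Trib3, Srrt, Gga1 and Vps37c. Cpsf1, a subunit of the complex that cleaves and polyadenylates pre-mRNA, was at 4.93, 4.88 and 4.57 in NTC and at -2.78, 0.35, 2.29 and -2.78 in Adar1 KO. Its log2FC without drug was 0.53 (interaction adjusted p = 1.9e-05). Gga1, which sorts cargo at the Golgi, was at 1.99, 3.34 and 3.25 in NTC against -2.78, -0.99, -0.63 and -0.46 (interaction adjusted p = 3.3e-06). Vps37c, of the ESCRT-I complex, was at 4.54, 4.80 and 4.44 in NTC against 0.34, -2.78, 2.55 and 2.40, and Srrt, an RNA-processing factor, at 4.65, 4.29 and 4.04 in NTC against -2.78, -0.07, 2.98 and 0.76. The Adar1 KO libraries vary widely in these genes: replicate 3 is the highest in Cpsf1, Srrt, Vps37c and DHX30, and replicate 4 in Trib3, Gga1 and Fam53c. To 2 decimals the lowest value is listed for replicates 1 and 4 in Cpsf1, 1 and 2 in DHX30, 1 to 3 in Fam53c, 1 in Srrt and Gga1, and 2 in Vps37c. Interactions passed the test for all 7, and the GC content of their transcripts is 53.4 to 60.3%, against a median of 50.2% over all genes. Replicates 1 and 2 have the steepest GC trend and replicate 3 the weakest, an order that these values follow in some genes and not in others; its part in them was not tested, and GC correction gave -5.10 for Cpsf1, -4.54 for DHX30 and -3.47 for Vps37c. Without KO replicates 1 and 2 the log2FC moved for Srrt (-2.45) and Vps37c (-2.12).

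**Figure D4:**
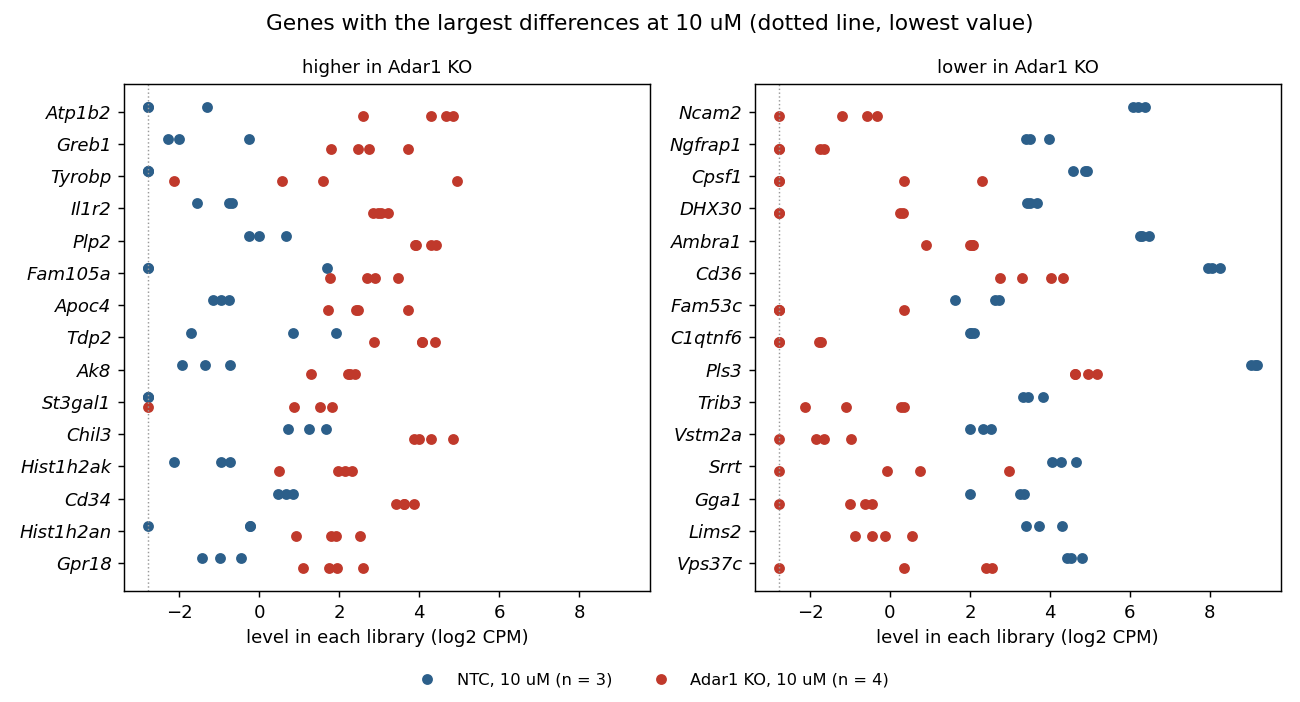
Level in log2 CPM of the 15 genes with the largest rise and the 15 with the largest fall in each library at 10 uM, for Adar1 KO (n = 4) and NTC (n = 3); the dotted line is the lowest value, -2.78. Apart from St3gal1, whose replicate 3 in Adar1 KO is level with NTC to 2 decimals, no groups overlap, while Cpsf1, Srrt and Vps37c spread widely within Adar1 KO.

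Of the genes higher in Adar1 KO, Atp1b2 changed the most on the deposited values. This subunit of the sodium pump, which also serves cell adhesion, was at -2.78, -2.78 and -1.32 in NTC and 4.85, 2.60, 4.30 and 4.68 in Adar1 KO (log2FC 6.40, SE 0.57, adjusted p = 7.9e-10). Greb1, an estrogen-induced gene, was between -2.29 and -0.25 in NTC and at 2.75, 1.80, 3.73 and 2.48 in Adar1 KO (log2FC 4.20, SE 0.67, adjusted p = 1.0e-05). Il1r2, a decoy receptor for interleukin 1, was at -0.75, -0.68 and -1.56 in NTC and 2.85, 3.05, 2.96 and 3.22 in Adar1 KO (log2FC 4.01, SE 0.46, adjusted p = 7.4e-08). All 4 Adar1 KO libraries are far above NTC in each. With log2(CPM + 1) in place of the deposited values, the log2FC was 4.08 for Atp1b2, 2.56 for Greb1 and 2.71 for Il1r2. Plp2, a membrane protein, was at -0.01, -0.25 and 0.67 in NTC against 4.42, 3.92, 3.89 and 4.29 (log2FC 3.99, SE 0.16, adjusted p = 4.9e-16). Chil3, a chitinase-like protein of alternatively activated macrophages, was at 1.24, 0.71 and 1.68 in NTC against 4.85, 4.00, 3.86 and 4.29 (log2FC 3.04, SE 0.22, adjusted p = 1.9e-11). Cd34, a sialomucin of stem and progenitor cells, was at 0.84, 0.66 and 0.47 in NTC and 3.43, 3.61, 3.61 and 3.86 in Adar1 KO (log2FC 2.97, SE 0.35, adjusted p = 1.2e-07). Again no libraries overlap, and GC correction gave 4.17, 2.83 and 2.87. Apoc4 (3.55), an apolipoprotein, Ak8 (3.39), an adenylate kinase, and Gpr18 (2.81), a lipid receptor, rose as well.

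The same contrast without drug gave 7.18 for Atp1b2, 3.98 for Il1r2, 2.94 for Greb1, 3.83 for Chil3, 2.79 for Apoc4, 2.73 for Ak8, 2.58 for Gpr18, 1.70 for Plp2 and 1.03 for Cd34. Plp2 (interaction adjusted p = 7.0e-08) and Cd34 (0.0041) differed between doses among these 9, both more at 10 uM. With GC correction Chil3 did as well, less at 10 uM (interaction -1.14, adjusted p = 0.0051; 0.052 before). Less steady are Fam105a, at -2.78, 1.70 and -2.78 in NTC and 3.46, 1.76, 2.89 and 2.70 in Adar1 KO, and Tdp2, which repairs topoisomerase adducts, at 0.84, 1.91 and -1.72 in NTC against 4.39, 2.86, 4.07 and 4.08. The call of Fam105a was lost without NTC replicate 1 or 3 (3.24 in either fit), that of Tdp2 without NTC replicate 3 (2.48) or without KO replicates 1 and 2 (3.74). Hist1h2ak and Hist1h2an, histone genes whose near-identical copies may share reads, gave 3.00 and 2.87. Outside Adar1 KO at 10 uM, Hist1h2an was at -0.17 or lower, and Hist1h2ak exceeded 1 CPM only in NTC at 0.016 uM (1.21 at the highest). Both histone genes thus pass the filter only through the group in which they are high, and their folds are to be read with that limit. Hist1h2an did not pass the filter without KO replicates 1 and 2. Tyrobp, an adaptor of macrophage surface receptors, is listed at -2.78, to 2 decimals the level of a gene without counts, in all NTC libraries, and at 4.94, 1.60, -2.14 and 0.56 in Adar1 KO, while at the other doses both groups are listed at the lowest value. In the separate experiment it is at 5.81 to 6.89 in NTC and 5.94 to 8.54 in guide 1 macrophages, and at the lowest value in all guide 2 macrophages, so nothing is read from its level here. St3gal1, a sialyltransferase, is likewise listed at the lowest value in NTC and at 1.52, 0.87, -2.78 and 1.82 in Adar1 KO, so no fold is given for either. Both drop below the filter when Adar1 KO replicate 1, 2 or 4 is left out.

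**Figure D5:**
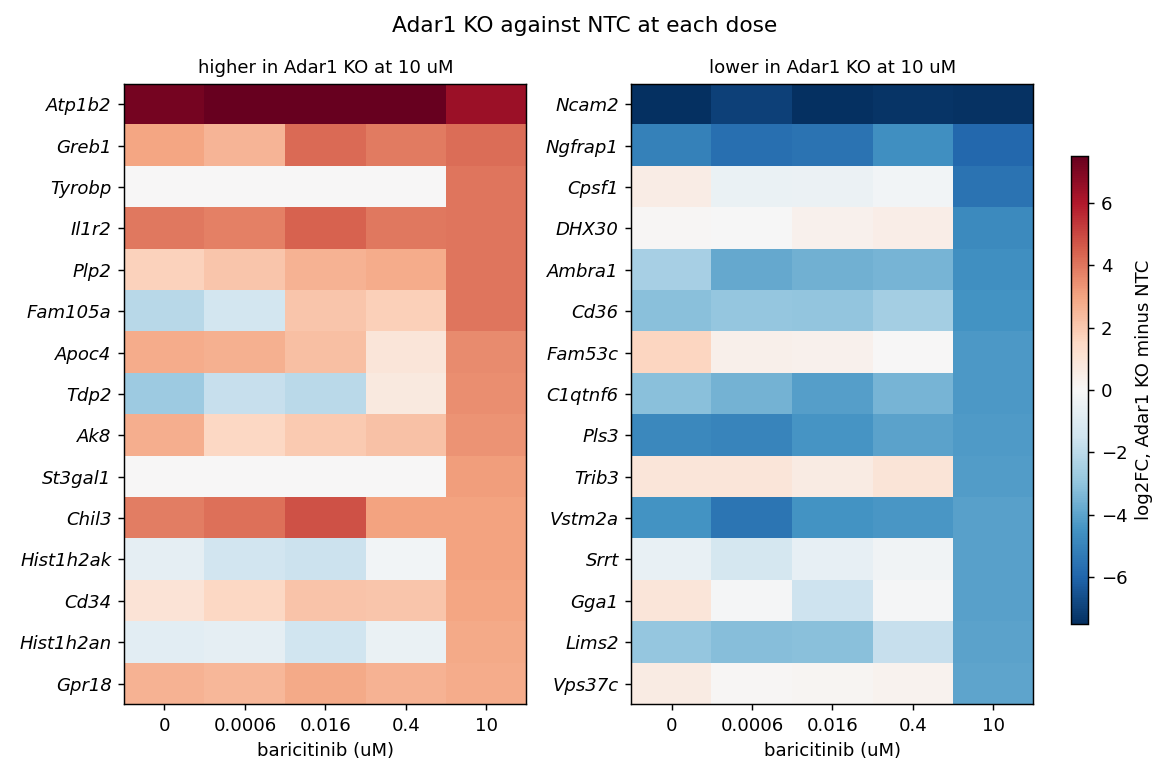
Log2FC between Adar1 KO and NTC at each dose of baricitinib (uM, as labelled), each against NTC libraries of that dose, for the 15 genes with the largest rise and the 15 with the largest fall at 10 uM. Ncam2, Pls3, Atp1b2 and Il1r2 keep their direction at all 5 doses, while Cpsf1 and Trib3 fall at 10 uM and give 0.53 and 0.89 without drug. Tyrobp and St3gal1 pass the filter through Adar1 KO at 10 uM alone, so nothing is read from their folds.

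Of the 350 DEGs at 10 uM, 69 were DEGs in the same direction without drug (17 higher and 52 lower). They are 19.7% of the DEGs at 10 uM and 16% of the 432 without drug; the contrasts share both lines but no library. Across all 5 doses 47 were DEGs in the same direction, 13 higher and 34 lower. With GC correction, 59 of the 69 were DEGs at both doses. A set of 5, named after their values were seen, went the opposite way without drug, all lower at 10 uM: Tgm2 (-2.40, and 3.01 without drug), a transglutaminase, Slamf7 (-3.09 and 2.52), a leukocyte receptor, Mgll (-2.37 and 2.62), a lipase of monoacylglycerols, H2-Q6 (-2.41 and 3.29), of the class I family, and the predicted Gm6736 (-2.04 and 2.08). The test of the difference between doses itself gave 793 DEGs, of which 172 are among the 350; these are 49.1% of the DEGs at 10 uM and 21.7% of the 793. GC correction gave 599 in that test.

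Libraries of another experiment, with the same guide and without drug, hold some of the same differences. There 442 of 11008 genes were DEGs in macrophages (4.02%) and 28 in progenitors (0.254%), with 2 NTC and 3 Adar1 KO macrophage libraries and 3 of each progenitor. NTC macrophage replicate 2 of that experiment was left out, since its values belong to another normalization set. Of the 350, 298 were tested there, and 26 were DEGs in the same direction in macrophages, 7.43% of the 350 and 5.88% of the 442. In progenitors 12 were, 3.43% of the 350 and 42.9% of the 28. The 5 that were DEGs at 10 uM, without drug and in both cell stages are Atp1b2, C1qtnf6, Ncam2, Ngfrap1 and Wbp5. Wbp5, also known as Tceal9, was at 5.22, 5.26 and 5.27 in NTC and 3.43, 3.62, 2.99 and 2.84 in Adar1 KO at 10 uM (log2FC -2.03, adjusted p = 3.4e-04), and -6.22 without drug, a difference between doses that passed the test (adjusted p = 8.9e-06).

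In macrophages made with guide 2, a line of its own normalization set and therefore given as levels over 5 libraries, the 5 genes just named were as follows. Ncam2 was at -3.56 to -1.91, against -2.69 to -2.16 with guide 1 and 2.76 to 3.16 in NTC of that experiment. In the same order Wbp5 was at -0.06 to 0.55, -1.31 to -0.06 and 3.28 to 3.63, Ngfrap1 at -2.19 to -1.50, -3.43 in each library and -0.22 to 0.37, and C1qtnf6 at 2.09 to 2.54, 0.09 to 1.31 and 3.39 to 3.78. In macrophages these 4 genes lie below NTC in both lines. Atp1b2 was at -2.57 to -0.53 with guide 2, 5.34 to 5.71 with guide 1 and -3.43 to -2.08 in NTC, so guide 2 overlaps NTC. In guide 2 progenitors, against NTC progenitors, Ncam2 (-3.56 to -2.13 and 4.30 to 5.19), Wbp5 (0.52 to 0.98 and 2.53 to 3.70) and Ngfrap1 (1.28 to 1.75 and 2.33 to 3.74) were lower. C1qtnf6 was higher there (2.73 to 3.03 and 2.16 to 2.31), and Atp1b2 lower (-2.36 to -1.18 and -0.31 to -0.08), each opposite to guide 1. Of other genes with large differences, Greb1 (0.71 to 2.49, 1.44 to 2.70 and -3.43 to -1.15) and Il1r2 (-0.54 to 0.34, 1.21 to 3.22 and -3.43 to -2.82) lie above NTC in both lines. Pls3 was at 7.07 to 7.22, 4.11 to 5.11 and 6.21 to 6.38, Cd36 at 8.09 to 8.30, 5.45 to 7.61 and 6.55 to 7.18, and Plp2 at -2.60 to -0.79, 6.40 to 6.60 and 4.64 in the 2 NTC libraries used. For these 3 the guide 2 line is on the side of NTC away from the change at 10 uM. Among the genes with the largest changes, the same holds for Apoc4, Ak8, Cd34, Cpsf1, DHX30, Fam53c, Trib3, Srrt, Gga1, Lims2 and Vps37c. Most of these were not called with guide 1 in that experiment either. The log2FC there was -1.22 for Apoc4, -0.31 for Ak8, -0.36 for Cpsf1, 0.90 for DHX30 and -0.29 for Fam53c. It was 0.05 for Srrt, 0.26 for Lims2 and -0.45 for Vps37c. Trib3 was called higher with guide 1 (2.73, adjusted p = 0.0011), opposite to 10 uM. Cd34 (1.64) and Gga1 (-1.20) were called in the direction of 10 uM. Chil3 and Tdp2 lie above NTC in guide 2, the direction of their change at 10 uM. The genes besides the 5 were picked after their values were seen, and guide 2 was scaled apart from the others and not tested against them.

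The called genes of antigen presentation were lower in class I and higher in class II. Of 16 class I and immunoproteasome genes 5 were called, all lower (against 45.3% of all genes called and 23.9% called lower), with a median of -0.40 (GC content 55.4%; 4 called and a median of -0.16 after GC correction). Tap2, a chain of the transporter that loads peptides, was at 5.72, 5.84 and 6.17 in NTC and 2.83, 2.55, 4.29 and 3.32 in Adar1 KO (log2FC -2.66, SE 0.35, adjusted p = 7.1e-07; -2.17 corrected). Its partner Tapbp was at 6.33, 6.43 and 6.73 in NTC against 4.23, 4.24, 5.48 and 4.86 (log2FC -1.79, adjusted p = 2.3e-04), and the heavy chain H2-D1 at 11.18, 10.98 and 11.34 in NTC against 9.92, 9.35, 10.23 and 10.20 (log2FC -1.24, adjusted p = 0.0069). No Adar1 KO library reaches NTC in these. Tap1 (-1.55) and H2-Q6 (-2.41) fell too; 3 of the 5 calls stood in all 7 fits that left out a library, 3 of them also with GC correction and 2 also without KO replicates 1 and 2. GC correction ended the call of H2-Q6 (-1.92) and Tap1 (-1.14). Without KO replicates 1 and 2 the call was lost for H2-D1 (-0.95) and Tap1 (-1.31). A left-out library ended the call of Tap1 (any of KO replicate 1, 2, 4 or NTC replicate 1, 2; -1.77 to -1.35 over the 7 fits) and H2-Q6 (NTC replicate 2, log2FC -2.24 or NTC replicate 3, log2FC -2.28). Without drug 10 of the list were called, all higher (25.3% of all genes called), and the difference between doses was called for 11, all lower at 10 uM (39.5% of all genes). Reads of the H2-Q genes may be shared among close copies. In class II 3 of 6 genes were called (against 45.3% of all genes), all higher (median 0.70): the invariant chain Cd74, at 6.35, 6.59 and 6.21 in NTC and 7.11, 7.77, 7.74 and 7.45 in Adar1 KO (95% interval of the log2FC 0.68 to 1.59, adjusted p = 1.5e-04), and the peptide exchange chains H2-DMb1 (0.89) and H2-DMb2 (0.78). They were also called with GC correction. Of these 6 genes 4 were called without drug, 2 higher and 2 lower (25.3% of all genes called). Cd74 was lower there (-0.67, adjusted p = 0.041), and its difference between doses passed the test (interaction 1.80, adjusted p = 1.0e-04). H2-DMb1 (0.71) and H2-DMb2 (0.96) were higher without drug too.

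Macrophage identity genes were expressed in both groups. The list holds 13 genes that the study plots as canonical for macrophages, with no rule of choice given in its text. These genes summed to 12284, 11381, 10763 and 11452 CPM in Adar1 KO and to 13716, 13716 and 14438 CPM in NTC. Cd14, the co-receptor for endotoxin, was the most abundant. Of the 13, 10 were called (against 45.3% of all genes), 5 in each direction, with a median of -0.18. Csf1r, the receptor for M-CSF, was at 10.59, 10.99 and 10.43 in NTC and 7.98, 8.51, 9.37 and 8.90 in Adar1 KO (log2FC -1.98, SE 0.21, adjusted p = 1.3e-08; -1.69 corrected). Cx3cr1, the receptor for fractalkine, was at 10.36, 10.44 and 10.23 in NTC against 8.38, 8.36, 9.05 and 8.90 (log2FC -1.67, SE 0.19, adjusted p = 4.6e-08; -1.64 corrected). Both receptors are lower in every Adar1 KO library. Tlr4 (-0.97), Itgam (-0.91) and Cd14 (-0.46) also fell, while Mertk, a receptor for dying cells (1.24), Aif1 (1.17), Fcgr3 (0.73), Ptprc (0.60) and Msr1 (0.41) rose; 7 of the 10 calls stood in all 7 fits that left out a library, 6 of them also with GC correction and 6 also without KO replicates 1 and 2. A left-out library ended the call of Aif1 (any of KO replicate 2 or NTC replicate 1, 3; 1.01 to 1.38 over the 7 fits), Cd14 (NTC replicate 3, log2FC -0.41) and Msr1 (NTC replicate 2, log2FC 0.33). With GC correction the call was lost for Cd14 (-0.21), Msr1 (0.15) and Ptprc (0.29). Aif1 (1.07), Cd14 (-0.43) and Msr1 (0.28) lost the call without KO replicates 1 and 2. For Csf1r and Cx3cr1 the log2FC was more negative at 10 uM than without drug, where it was 0.06 and -0.62 (interaction adjusted p = 7.0e-06 and 0.0034).

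Scavenging and complement genes gave 8 calls among 13 (3 higher, 5 lower; median -0.64), against 45.3% of all genes, and 5 of them were DEGs, against 3.14%. Besides Cd36, Cd5l, a scavenger protein of tissue macrophages, was at 1.56, 1.66 and 2.34 in NTC and -1.63, -2.38, -1.56 and -0.58 in Adar1 KO (log2FC -3.40, adjusted p = 1.5e-08), and Folr2, a folate receptor, at 1.45, 1.64 and 1.57 in NTC against -2.78, 0.01, -1.49 and -1.44 (log2FC -2.98, adjusted p = 3.0e-05). The receptor C3ar1 (-1.15) and C1qb (-1.65) fell too. Mrc1, the mannose receptor, rose, from 3.23, 3.99 and 3.20 in NTC to 5.94, 5.95, 5.60 and 5.51 in Adar1 KO (log2FC 2.28, SE 0.25, adjusted p = 4.5e-08; 1.93 corrected), as did the complement protein C3, from 2.97, 2.55 and 3.14 in NTC to 4.86, 4.72, 4.78 and 5.24 (log2FC 2.01, adjusted p = 0.0064). The scavenger receptor Stab1 was higher by 0.53, but was called lower without drug (-0.71, adjusted p = 0.0019), where Mrc1 (0.95) and C3 (4.03) were higher. In the separate guide 1 macrophages, Mrc1 (-3.20, adjusted p = 6.2e-05) and Stab1 (-1.73, 0.0055) were lower and C3 (2.02, 0.0094) higher. There 8 of 10 genes of the list were called, 7 of them lower (21.8% of all genes called). At 10 uM 7 of the 8 calls stood in all 7 fits that left out a library, 7 of them also with GC correction and 7 also without KO replicates 1 and 2. The call ended by a left-out library is C1qb (NTC replicate 2, log2FC -1.24). The call lost with GC correction is that of C1qb (-1.17), and the log2FC moved for Stab1 (0.96). The fit without KO replicates 1 and 2 ended the call of C1qb (-1.69).

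Of 15 genes of lipid-associated and disease-associated macrophages tested, 1 is Tyrobp, which passes the filter through Adar1 KO at 10 uM alone and is left out here. Of the other 14, 9 were called (against 45.3% of all genes), 5 higher and 4 lower, with a median of -0.25. Lpl, which releases fatty acids from lipoproteins, was at 9.62, 9.93 and 9.81 in NTC and 6.70, 7.19, 7.37 and 6.89 in Adar1 KO (log2FC -2.75, SE 0.15, adjusted p = 6.5e-14; -2.84 corrected), and at -2.15 without drug. Lgals3, a lectin of activated macrophages, was at 10.32, 10.23 and 10.61 in NTC against 8.77, 8.46, 9.13 and 8.99 (log2FC -1.55, SE 0.17, adjusted p = 2.3e-08; -1.10 corrected), against 0.37 without drug (interaction adjusted p = 8.9e-07). Fabp4 (-1.72) and Gpnmb (-1.29) were lower, and a left-out library ended the call of Gpnmb (KO replicate 2, log2FC -0.98 or NTC replicate 3, log2FC -0.82). The glucan receptor Clec7a rose from 1.94, 2.65 and 2.34 in NTC to 4.01, 3.50, 3.70 and 3.68 (log2FC 1.41, adjusted p = 2.0e-05), and the cholesterol exporter Abcg1 (1.20), Cst7 (1.07), Cd9 (1.00) and Cd63 (0.84) rose beside it.

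Cytokines and chemokines gave 7 calls among 18 tested (3 higher, 4 lower; median 0.05), against 45.3% of all genes. Cxcl16, a chemokine that also takes up oxidized lipid, was at 3.27, 3.41 and 2.67 in NTC and -1.69, -0.17, -0.99 and -0.04 in Adar1 KO (log2FC -3.84, SE 0.58, adjusted p = 4.4e-06), and -2.83 without drug. Ccl7, a monocyte chemokine, was at 1.37, 1.87 and 1.42 in NTC against 4.13, 4.03, 3.63 and 3.46 (log2FC 2.25, SE 0.63, adjusted p = 0.0047), Il1rn, the antagonist of interleukin 1, at 3.53, 3.53 and 3.52 in NTC against 4.84, 5.08, 4.66 and 4.71 (log2FC 1.29, adjusted p = 0.0075). Both were higher in all Adar1 KO libraries, and without drug they gave 3.19 and 3.39. Il1b itself was low, at -1.79, -1.86 and -2.78 in NTC and -0.56, 0.19, 0.71 and -0.04 in Adar1 KO (log2FC 2.22, adjusted p = 0.0017). Tnf (-0.77), Ccl9 (-0.42) and the prostaglandin synthase Ptgs2 (-1.66) fell; 4 of the 7 calls stood in all 7 fits that left out a library, 4 of them also with GC correction and 2 also without KO replicates 1 and 2. A left-out library ended the call of Tnf (any of KO replicate 1, 2 or NTC replicate 1, 3; -0.95 to -0.59 over the 7 fits), Ccl9 (NTC replicate 3, log2FC -0.31) and Ptgs2 (any of KO replicate 1, 2, 3 or NTC replicate 1, 2; -2.12 to -1.02 over the 7 fits). Tnf (-0.63) lost the call with GC correction, and the log2FC moved for Ccl9 (-0.67). When KO replicates 1 and 2 were left out together, the call was lost for Tnf (-0.44), Il1rn (1.16), Ccl7 (1.98) and Ptgs2 (-1.36).

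Of 20 genes of the integrated stress response 11 were called (against 45.3% of all genes), 2 higher and 9 lower, with a median of -0.48 and a median GC content of 55.6%; after GC correction 9 were called, with a median of -0.18. Trib3, a pseudokinase induced by ATF4, was at 3.32, 3.82 and 3.46 in NTC and -1.09, -2.12, 0.28 and 0.35 in Adar1 KO (log2FC -4.18, SE 0.64, adjusted p = 5.4e-06; -3.68 corrected). Atf3, a factor induced by stress, was at 5.29, 4.99 and 5.69 in NTC against 3.64, 3.38, 3.02 and 3.20 (log2FC -2.01, SE 0.44, adjusted p = 4.4e-04; -1.95 corrected). The serine and folate enzymes Phgdh (-1.58), Shmt2 (-1.41) and Mthfd2 (-0.84), Sesn2 (-1.17), the phosphatase subunit Ppp1r15a (-1.46), Asns (-0.49) and Atf4 (-0.44) also fell. Cebpb (1.02) and the secreted Gdf15 (1.80) rose; 8 of the 11 calls stood in all 7 fits that left out a library, 7 of them also with GC correction and 7 also without KO replicates 1 and 2. Leaving out a library ended the call of Atf4 (any of KO replicate 1, 2, 4 or NTC replicate 1, 2, 3; -0.53 to -0.38 over the 7 fits), Asns (NTC replicate 1, log2FC -0.49 or NTC replicate 2, log2FC -0.49) and Gdf15 (any of KO replicate 1, 4 or NTC replicate 1, 2; 1.61 to 2.09 over the 7 fits). GC correction ended the call of Atf4 (-0.06) and Ppp1r15a (-1.06), and the log2FC moved for Sesn2 (-0.67) and Shmt2 (-0.91). Without KO replicates 1 and 2 the call was lost for Atf4 (-0.31) and Ppp1r15a (-1.30). Without drug 7 of the list were called (25.3% of all genes) and 6 of these were higher, and the difference between doses was called for 13, 11 of them lower at 10 uM (39.5% of all genes).

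Early response genes, which cells induce within minutes of a stimulus, gave 9 calls among 13 (1 higher, 8 lower; median -0.95, or -0.65 after GC correction), against 45.3% of all genes. Zfp36, which marks inflammatory mRNA for decay, was at 5.47, 5.52 and 5.55 in NTC and 2.95, 1.83, 2.98 and 2.68 in Adar1 KO (log2FC -2.90, SE 0.33, adjusted p = 5.3e-08; -2.56 corrected), against -0.37 without drug (interaction adjusted p = 1.7e-04). Fos was at 7.00, 7.40 and 7.10 in NTC against 5.60, 6.02, 6.12 and 6.05 (log2FC -1.22, adjusted p = 3.2e-08), and the close copies Hspa1a and Hspa1b, heat shock genes whose reads may be shared, gave -2.13 and -1.89. Junb (-1.47), Ier3 (-0.95) and Egr1 (-0.89) fell, as did Atf3, named above, and Jund (1.02) rose; 6 of the 9 calls stood in all 7 fits that left out a library, 6 of them also with GC correction and 6 also without KO replicates 1 and 2. Leaving out a library ended the call of Junb (any of KO replicate 1, 2 or NTC replicate 1, 2, 3; -1.61 to -1.22 over the 7 fits) and Egr1 (NTC replicate 3, log2FC -0.62) and that of Jund (any of KO replicate 2, 3 or NTC replicate 1, 2, 3; log2FC 0.82 at the lowest). With GC correction the call was lost for Junb (-1.09) and Egr1 (-0.51), and the log2FC moved for Fos (-0.80). Junb (-1.05), Jund (0.85) and Egr1 (-0.85) lost the call without KO replicates 1 and 2.

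Targets of p53 gave 6 calls among 15 (5 higher, 1 lower; median 0.09), against 45.3% of all genes. Plk2, a kinase of the centrosome cycle, was at 4.10, 4.13 and 4.57 in NTC and between 0.56 and 1.54 in Adar1 KO (log2FC -3.19, SE 0.39, adjusted p = 1.9e-07), and -2.67 without drug. The death receptor Fas was at 4.06, 4.16 and 3.61 in NTC against 5.64, 5.60, 5.00 and 5.33 (log2FC 1.45, adjusted p = 0.0016), and the cell cycle inhibitor Cdkn1a at 8.74, 9.26 and 8.52 in NTC against 9.49, 10.24, 9.92 and 9.60 (log2FC 0.97, adjusted p = 0.0011). Ei24 (1.37), Trp53inp1 (0.63) and the pore protein Bax (0.40) rose as well, and leaving out a library ended the call of Ei24 (any of KO replicate 3 or NTC replicate 2, 3; 1.01 to 1.86 over the 7 fits), Trp53inp1 (KO replicate 1, log2FC 0.54) and Bax (NTC replicate 1, log2FC 0.33). The call lost with GC correction is that of Trp53inp1 (0.30), and the log2FC moved for Bax (0.89). The fit without KO replicates 1 and 2 ended the call of Trp53inp1 (0.62). Of 14 cell death genes 7 were called (3 higher, 4 lower; median 0.21), against the same 45.3% of all genes. Ripk1 (0.65), Casp8 (0.53) and Mcl1 (0.87) rose, and Bcl2l11 (-0.81), Gsdmd (-0.63), Ripk3 (-0.60) and Nlrp3 (-0.54) fell. Ripk3 (-0.33), Gsdmd (-0.30) and Nlrp3 (-0.47) lost the call with GC correction. When KO replicates 1 and 2 were left out together, the call was lost for Ripk3 (-0.51), Casp8 (0.41), Gsdmd (-0.44) and Nlrp3 (-0.37). Leaving out a library ended the call of Gsdmd (KO replicate 2, log2FC -0.54), Ripk3 (NTC replicate 2, log2FC -0.47) and Nlrp3 (any of KO replicate 1, 2, 4 or NTC replicate 2, 3; -0.66 to -0.41 over the 7 fits).

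Sterol and fatty acid genes gave 7 calls among 15 (2 higher, 5 lower; median -0.16), against 45.3% of all genes. Dhcr7, the last enzyme of cholesterol synthesis, was at 5.38, 5.30 and 5.26 in NTC and 3.31, 3.15, 4.02 and 3.60 in Adar1 KO (log2FC -1.79, SE 0.18, adjusted p = 1.0e-08; -1.60 corrected). The groups do not overlap. It was not called without drug (0.42), and the interaction passed the test (adjusted p = 4.9e-07). Lss (-1.50), the regulator Srebf2 (-1.13) and Cyp51 (-0.44) fell, while Insig1 (0.87) rose; 4 of the 7 calls stood in all 7 fits that left out a library, 4 of them also with GC correction and 4 also without KO replicates 1 and 2. Leaving out a library ended the call of Cyp51 (any of KO replicate 2, 3, 4 or NTC replicate 1, 2, 3; -0.51 to -0.40 over the 7 fits) and Insig1 (NTC replicate 2, log2FC 0.72). GC correction moved the log2FC of Srebf2 (-0.63). Without KO replicates 1 and 2 the call was lost for Cyp51 (-0.49) and Insig1 (0.65).

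Of 20 genes of mitosis and replication tested 11 were called (against 45.3% of all genes), 8 higher and 3 lower, with a median of 0.61. Ccna2, the cyclin of S and G2 phase, was at 4.78, 5.18 and 4.42 in NTC and 5.70, 6.78, 6.10 and 5.92 in Adar1 KO (log2FC 1.33, adjusted p = 0.0079), and Cenpe, a motor of the kinetochore, at 6.71, 7.16 and 6.40 in NTC against 7.38, 8.06, 7.80 and 7.65 (log2FC 0.96, adjusted p = 0.0043). Ccnb2 (1.35), Cenpf (1.09), Mki67 (0.97), Top2a (0.88), Tyms (0.75) and Cdk1 (0.74) rose too. These 6 calls were not kept in every fit: a left-out library ended the call of Ccnb2 (NTC replicate 3, log2FC 1.08), Cenpf (any of KO replicate 2 or NTC replicate 1, 3; 0.87 to 1.38 over the 7 fits), Mki67 (any of KO replicate 2, 3 or NTC replicate 1, 3; 0.80 to 1.13 over the 7 fits), Top2a (any of KO replicate 2 or NTC replicate 1, 3; 0.73 to 1.04 over the 7 fits), Tyms (any of KO replicate 2, 4 or NTC replicate 1, 3; 0.62 to 0.88 over the 7 fits) and Cdk1 (any of KO replicate 2 or NTC replicate 1, 3; 0.62 to 0.91 over the 7 fits). Over the list 4 of the 11 calls stood in all 7 fits that left out a library, 4 of them also with GC correction and 3 also without KO replicates 1 and 2. With GC correction the call was lost for Top2a (0.62), Cenpf (0.88) and Mcm3 (-0.54). Mki67 (0.99), Top2a (0.81), Ccnb2 (1.33), Ccna2 (1.22), Cdk1 (0.72), Cenpf (1.07), Mcm3 (-0.58) and Tyms (0.67) lost the call without KO replicates 1 and 2. Subunits of the helicase that opens replication origins fell, with Mcm2 at 6.68, 7.04 and 6.71 in NTC and 4.30, 4.80, 5.37 and 4.80 in Adar1 KO (log2FC -1.99, adjusted p = 4.4e-07), Mcm5 at 5.76, 5.93 and 5.43 in NTC against 3.77, 2.82, 4.34 and 3.86 (log2FC -2.01, adjusted p = 3.0e-06) and Mcm3 at a log2FC of -0.71, whose call was also ended (by any of KO replicate 1 or NTC replicate 2, 3; -0.76 to -0.59 over the 7 fits). Without drug 19 of the 20 were called (25.3% of all genes), all lower in Adar1 KO, with a median of -1.69. The difference between doses was called for 17 (39.5% of all genes), all with a higher log2FC at 10 uM. In the separate guide 1 macrophages, also without drug, 19 of 20 were called, all higher, with a median of 2.27 (21.8% of all genes called there). The direction without drug thus differed between the experiments, with Mki67 at -2.29 and 2.23 and Mcm2 at -1.43 and 1.08.

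Of 12 progenitor markers 1 passed the filter, Cd34, described above; the list summed to 11.1, 12.9, 13.1 and 14.8 CPM in Adar1 KO and 2.24, 1.95 and 1.67 CPM in NTC, with Cd34 the most abundant, and Kit, Hoxa9 and Elane were at the lowest value in all 7 libraries. Neutrophil markers summed to 176, 103, 91 and 127 CPM in Adar1 KO and 74.2, 44.8 and 109 CPM in NTC, mostly S100a8, a calcium-binding alarmin. Of 7 tested 3 were called (against 45.3% of all genes), all higher (median 0.67): S100a8 (1.01), the collagenase Mmp8 (1.58) and Camp, a granule peptide listed at the lowest value in NTC and at -0.39, -1.09, -1.10 and -0.96 in Adar1 KO. Ngp, S100a9, Ly6g and Retnlg were at the lowest value in all 7 libraries. The call of S100a8 was lost with GC correction (0.77) and without some libraries (any of KO replicate 1, 4 or NTC replicate 1, 2; 0.54 to 1.43 over the 7 fits), or without KO replicates 1 and 2 (0.79). No gene was called in limma, with or without GC correction, among 2 dendritic cell markers tested (1 at an unadjusted p under 0.05), 5 of osteoclasts, 2 of the erythroid and megakaryocyte lines, 1 of fibroblasts, endothelium and epithelium, and 2 Y-linked genes (0 at an unadjusted p under 0.05 in the last 4 lists). Their medians were 0.53, -0.03, 0.17, 0.13 and -0.28.

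The sums of those lists overlap between the groups: 63.8 to 116 CPM in Adar1 KO and 66.4 to 81.3 in NTC for dendritic cell markers, mostly Bst1, 30.1 to 35.9 and 27.3 to 39.8 for osteoclast markers, mostly Nfatc1, 2.99 to 5.83 and 1.85 to 4.84 for the erythroid and megakaryocyte list, mostly Pf4, and 2.63 to 3.97 and 3.28 to 3.81 for fibroblasts, endothelium and epithelium, mostly Pecam1. Mast cell and basophil markers (up to 0.202 CPM in all) and those of lymphocytes and natural killer cells (up to 1.11 CPM) had no gene above the filter. Clec9a and Ccr7, Calcr, Gp1bb, and Col1a2, Col3a1, Epcam and Krt8 were at the lowest value in all 7 libraries. So were Mcpt8, Fcer1a, Prss34, Gata1, Mcpt4 and Cma1 of mast cells and basophils, and Cd3e, Trbc1, Ncr1, Klra8, Nkg7 and Gzmb of lymphocytes. A listing at the lowest value does not show that a gene is not expressed: Tyrobp is so listed at all other doses but not in guide 1 and NTC macrophages of the separate experiment, and S100a9 is so listed beside S100a8. The part that cells expressing Cd34 or neutrophil genes have in the differences between the groups was not tested.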

How the data were processed

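RNA was sequenced from 92 libraries; the 33 of the baricitinib experiment form 10 groups of Adar1 KO or NTC macrophages at 5 doses. According to the submitters' notes, the authors quantified reads with kallisto 0.46.0 on GRCm39, summarised them to genes with tximport and deposited log2 CPM after TMM normalization in edgeR. The table has 29957 entries, of which 1 has no gene name (0.00226 to 0.007% of a library) and was left out. The values fall into 6 normalization sets, and no test crosses sets. Depth was estimated from the steps between low values; a level of 3 counts served as the floor.

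Genes above 1 CPM in at least 3 of the 33 libraries (11152) were fitted with limma 3.58.1 in R 4.3.3 on the deposited values, with a mean for each group, a mean-variance trend and 23 residual degrees of freedom. Log2FC is Adar1 KO minus NTC. All p-values written as adjusted are from limma's moderated tests, adjusted by the Benjamini-Hochberg method over the whole set of genes in the fit; a gene is called at 0.05. The interaction is the log2FC at 10 uM minus that at 0 uM. The guide 1 experiment without drug was fitted on its own, with 11 libraries. The code was tested on simulated data.

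Named are Adar, the 15 genes with the largest rise and the 15 with the largest fall among DEGs at 10 uM whose groups do not overlap (predicted models, 3 within that range, left out), the 5 largest interactions in each direction, the DEGs found in every contrast of guide 1, the 20 ISGs and, of the other gene lists (28 in all), the called genes or, with none, the 2 most abundant, 181 genes together; some of them are not reported here. Members and lists were chosen with earlier results of these data known. GC content came from GENCODE M21 transcripts for 11094 of the genes (99.5%), 386 of them through an older symbol. Alternatives were other filters, offsets, normalizations, weights, fold limits, replicate numbers and each library left out; GC correction and a fit without Adar1 KO replicates 1 and 2 were added after the data were seen.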

Additional observations from a re-analysis of the deposited data

Results flagged for a closer look

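In 5 of 65 groups of 4 libraries examined, a library lay far from the other 3 by Dixon's criterion. Chance picks out about 1 in 20 groups. They are Ak8 in Adar1 KO replicate 3 (1.30 log2 CPM), Ambra1 in replicate 1 (0.89), Fam53c in replicate 4 (0.34), Oas1g in replicate 3 (-1.58) and Oas2 in replicate 4 (-1.13). In Fam53c, Oas1g and Oas2 the other 3 libraries are all at the lowest value to 2 decimals, so any value above it meets the criterion and nothing is read from these.

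The difference between Adar1 KO and NTC was not the same at 10 uM and without drug for many genes. The interaction in limma gave 793 DEGs, and it was called for 13 of the 20 ISGs and for Adar (-3.21). The largest positive values were those of Pfkfb4 (6.27), Tdp2 (6.24), Fam105a (6.05), Rps6ka5 (5.66) and Clasrp (4.93), predicted models left out. Their SEs are large, 1.68 to 2.28, and libraries of a group differ widely. At 10 uM Pfkfb4 was at -2.78, 3.04 and -0.87 in NTC, and Clasrp at -2.78, -2.78 and 1.23. Rps6ka5 was at -2.78, 0.08, 1.15 and 3.60 in Adar1 KO. Pfkfb4, Rps6ka5 and Clasrp were not called at 10 uM. With GC correction the interaction of Rps6ka5 was not called (5.26, adjusted p = 0.061). The largest negative ones were those of Ifi44 (-7.80), Ly6a (-7.40), Ms4a4c (-6.88), Ccl5 (-6.82) and Rsad2 (-6.66).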

How the results depend on the processing

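The fit of the 7 libraries alone called 3 of 11 ISGs at 10 uM and library weights called 2 of 20, against 0; over all genes these fits called 4989 of 10262 and 5676 of 11152, against 5055 of 11152. With log2(CPM + 1) the DEGs numbered 152 at 10 uM, 250 without drug, 513 for the interaction, 27 at both doses and 282 in the separate macrophages, against 350, 432, 793, 69 and 442. A log2FC limit of 1 gave 1890, 1259, 2635, 297 and 1159. GC correction moved the share of higher genes among DEGs at 10 uM from 23.7 to 35.2%, and without Adar1 KO replicates 1 and 2 there were 240 DEGs and 3409 calls, against 350 and 5055; both settings were chosen after the data were seen. Over all settings, 2978 results of single named genes kept their status, called or not called, 213 lost a call and 20 gained one. No gene with a call, before or after, turned its direction; genes called in neither fit were not held to that, and some of them did turn.

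Leaving out each library in turn gave 296 to 406 DEGs at 10 uM (69 to 87 higher, 227 to 327 lower), 4359 to 5077 calls (1956 to 2393 higher, 2314 to 2684 lower), 427 to 431 DEGs without drug, 695 to 864 for the interaction, 64 to 74 at both doses and 0 called ISGs. The lowest count of DEGs came without Adar1 KO replicate 1, the highest without replicate 3.

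With the replicate number as a replicate block there were 373 DEGs for the number in the titles and 340 for the number in the library names. The deviations of libraries with the same number correlated at 0.02, 0.03 and -0.07 by title and at 0.02, 0.09 and 0.03 by library name, and not every library correlated best with its own number, so the libraries share only a number.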

Other observations

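The doses between also separate the groups, each against NTC libraries of its own dose. Doses are given as labelled; the treatment protocol names 0.00064 and 0.16 uM where the labels have 0.0006 and 0.016 uM, and which holds is not known. DEGs between Adar1 KO and NTC numbered 558 at 0.0006 uM (226 higher), 571 at 0.016 uM (261 higher) and 199 at 0.4 uM (137 higher), so the 350 at 10 uM exceed the count at 0.4 uM. From no drug to 10 uM, 93 genes were DEGs within NTC (18 higher and 75 lower) and 1635 within Adar1 KO (614 higher and 1021 lower).

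Each group is 1 line made with 1 guide, and the 4 Adar1 KO libraries at 10 uM share a GC trend that no other group has, so genotype, line and library effects cannot be told apart in this contrast. Of the 5055 calls, 2904 stood in every fit that left out libraries or corrected for GC. The ISGs sit at low levels at 10 uM, some near the floor. Levels of mRNA show neither editing, protein nor the state of the kinases.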
